A study of Homo sapiens with 6 samples.

Results

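Secreted immune signals were followed in ES2, a human ovarian cancer cell line, through 9 genes: the interleukin genes IL1A, IL6, IL11, IL16, IL23A and IL32, the colony stimulating factor genes CSF1 and CSF2, and the chemokine gene CXCL2. They were taken by symbol from the deposited expression tables, and all 9 were found among 771 named genes and 1113 entries in all. Antisense oligonucleotides (ASO) are short synthetic strands that bind a chosen RNA by base pairing and can trigger its cleavage. ES2 cells that received a control ASO gave 3 libraries, and 3 more came from ES2 cells that received an ASO aimed at RUNX1-IT1, a non-coding transcript of the RUNX1 locus (RUNX1-IT1 ASO). The labels give the control libraries the genotype Control, and the others are labelled as RUNX1-IT1 knockdown. Both groups are the same cell line, and the labels name no dose, no time of exposure and no second oligonucleotide against the target. The tables do not list RUNX1-IT1 itself, and its level is not analysed here. Replicates are numbered within each group but are not said to come from separate cultures, so p-values measure only the spread between these libraries, which may be technical.

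Interleukins and colony stimulating factors are small proteins that cells release to act on receptors of neighbouring cells. IL-6 and IL-11 each bind a receptor of their own, and both complexes then recruit the shared chain gp130, which signals through JAK kinases and STAT3. CXCL2 draws neutrophils, and CSF1 and CSF2 support macrophages and other myeloid cells. In tumour cells many of these genes are induced by the transcription factors NF-kB and AP-1, and their messages are often short-lived.

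The promoters of 4 members are shown because they hold matches to sites of those factors and belong to genes with large (IL6 and IL32) and small (IL11 and CXCL2) falls. Each window runs from 250 bases before to 50 bases after an annotated start in the sense of the gene, from RefSeq on GRCh38.p14. Capitals mark matches, searched on both strands, to the AP-1 motif TGANTCA, the cyclic AMP response element TGACGTCA and the NF-kB consensus motif.
IL6, chr7:22726950-22727249, plus strand: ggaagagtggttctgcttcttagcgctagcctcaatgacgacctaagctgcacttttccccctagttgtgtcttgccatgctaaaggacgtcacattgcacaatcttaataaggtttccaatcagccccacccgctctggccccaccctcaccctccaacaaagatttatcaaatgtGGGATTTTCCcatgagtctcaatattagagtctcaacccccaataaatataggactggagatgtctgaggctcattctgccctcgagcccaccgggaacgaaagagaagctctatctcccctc
IL11, chr19:55370414-55370713, minus strand: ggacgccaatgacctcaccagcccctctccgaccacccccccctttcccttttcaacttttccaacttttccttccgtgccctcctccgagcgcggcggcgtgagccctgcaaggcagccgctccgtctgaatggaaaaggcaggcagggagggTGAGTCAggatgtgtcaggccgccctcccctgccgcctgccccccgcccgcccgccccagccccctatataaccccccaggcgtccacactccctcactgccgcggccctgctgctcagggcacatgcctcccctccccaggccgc
CXCL2, chr4:74099146-74099445, minus strand: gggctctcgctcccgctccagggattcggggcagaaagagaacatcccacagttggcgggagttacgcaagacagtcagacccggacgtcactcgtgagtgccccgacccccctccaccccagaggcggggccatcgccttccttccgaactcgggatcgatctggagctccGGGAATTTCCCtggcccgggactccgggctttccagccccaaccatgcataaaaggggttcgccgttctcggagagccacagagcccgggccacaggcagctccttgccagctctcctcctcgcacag
IL32, chr16:3065153-3065452, plus strand: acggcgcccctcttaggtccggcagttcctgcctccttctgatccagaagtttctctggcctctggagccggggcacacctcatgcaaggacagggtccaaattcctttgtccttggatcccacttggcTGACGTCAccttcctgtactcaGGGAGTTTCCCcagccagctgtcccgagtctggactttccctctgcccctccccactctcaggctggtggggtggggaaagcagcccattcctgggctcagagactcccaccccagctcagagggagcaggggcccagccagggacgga

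The IL6 window holds a single NF-kB match, GGGATTTTCC, whose first base lies 73 bases before the start site. The IL11 window holds none and has 1 AP-1 match, TGAGTCA, 96 bases before the start. CXCL2 has a pair of overlapping NF-kB matches that begin 78 and 77 bases before the start. IL32 has a cyclic AMP response element at 121 bases and overlapping NF-kB matches at 99 and 98 bases before the start, and its second annotated start has no match in its window. Over the 11 windows of the 8 members that matched the promoter table, all but CSF1, NF-kB matches were found for IL6, IL23A, IL32 and CXCL2, and AP-1 matches for IL1A, IL11 and IL23A. By window, 4 held an NF-kB match and 4 an AP-1 match, and the overlapping windows of IL1A hold the same AP-1 sites. Of all 35116 windows of 300 bases in the table, 11.3% hold an NF-kB match, 7.71% an AP-1 match and 1.85% a cyclic AMP response element. A match describes the letters of these windows only.

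The deposited values are CPM, read counts divided by the depth of the library. Depth was 17100000 to 21200000 reads per library, and the listed entries sum to 1.02 to 1.11% of the reads in control ASO libraries and to 0.363 to 0.389% in RUNX1-IT1 ASO libraries. The tables hold entries that nearly all differ 2-fold or more between these same libraries, the smallest fold among named genes being 1.99, so a fall of a listed gene is not independent evidence. Of 489 named genes whose mean reached 1 CPM, which were tested with limma on log2(CPM + 1), 97.5% were called lower and 2.04% higher under the RUNX1-IT1 ASO at a Benjamini-Hochberg adjusted p under 0.05. Over these genes the median change was -1.11 on the log2(CPM + 1) scale. Of 19 ovarian tumour and epithelial markers only PAX8 was listed, at 7.16 ± 0.733 and 2.98 ± 0.602 CPM (SD, n = 3 each), so the labelled cell type could not be checked.

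All 8 members that passed the expression filter were called lower (limma), against the background of 97.5%, and IL16 was too low for the test. In every one of the 9, the highest RUNX1-IT1 ASO library was below the lowest control ASO library, as in 95.7% of all named genes. Both counts are near their backgrounds and are not a result about these genes. What differed among them was the size of the fall, from 5.89-fold in IL6 to 2.06-fold in IL11. The 9 members had a median fall of 3.42-fold, which is the value of IL16, a gene outside the tested set. The tested genes had a median fall of 2.97-fold, and 6 of the 9 members, the untested IL16 among them, lay above it. These medians are over unlike sets of genes. In bulk RNA, fewer cells that make a transcript and less of it in each cell cannot be told apart.

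**Figure D1:**
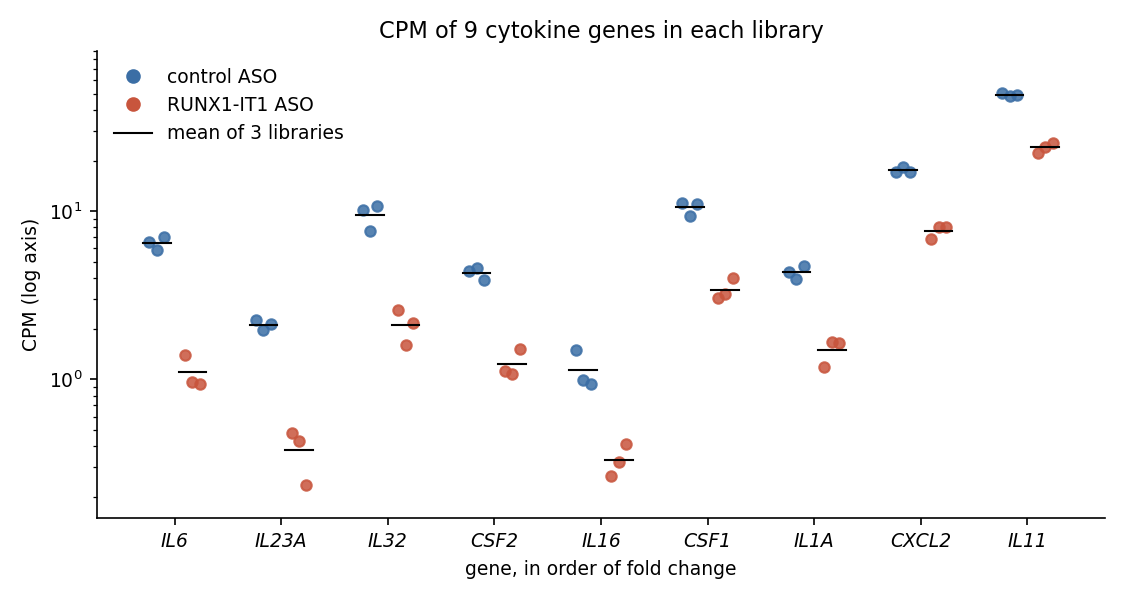
CPM of the 9 genes on a log axis, with 1 point per library and a line at the mean of 3 libraries, in blue for control ASO and red for RUNX1-IT1 ASO. Genes stand in order of their fold change, from IL6 (5.89-fold lower) to IL11 (2.06-fold lower), and no gene has overlapping groups.

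IL6 encodes the inflammatory cytokine that starts the acute phase response. In replicates 1, 2 and 3 it stood at 6.53, 5.85 and 7.02 CPM with the control ASO, and at 1.39, 0.968 and 0.937 CPM with the RUNX1-IT1 ASO, and values of the other members follow in the same order. The lowest control library was 4.21 times the highest RUNX1-IT1 ASO library, the widest gap of the 9 genes. The means were 6.47 ± 0.589 and 1.10 ± 0.253 CPM, which left IL6 at 17.0% of its control level. On the log2(CPM + 1) scale it fell by 1.83 ± 0.13 (SE, limma, adjusted p = 2.98e-08). Of the 489 tested genes, 13.9% had a larger fall by the ratio of mean CPM. The RUNX1-IT1 ASO values rest on 26, 18 and 16 reads, against 101 to 149 reads in the controls.

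IL11, which encodes a cytokine of stromal and tumour cells known for its part in fibrosis and bone metastasis, was the most abundant member. Its values were 50.5, 48.1 and 49.4 CPM under the control ASO and 22.2, 24.2 and 25.4 CPM under the RUNX1-IT1 ASO. Replicates lay close together in both groups, with a coefficient of variation of 2.39% and 6.81%, on 831 to 1048 and 415 to 450 reads. IL11 kept 48.5% of its control level and fell by 1.01 ± 0.09 (SE, limma, adjusted p = 1.15e-07). A larger fall was seen in 94.1% of tested genes, which places IL11 at the edge of about 2-fold where the tables end.

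IL6 and IL11 were then compared within each library, where the scaling of the library cancels except through the pseudocount. For each CPM of IL6 the control ASO libraries held 7.73, 8.23 and 7.03 CPM of IL11, and the RUNX1-IT1 ASO libraries 16.0, 25.0 and 27.1 CPM. The ratio thus went from 7.67 ± 0.600 to 22.7 ± 5.93 (SD, n = 3 each), and the groups did not overlap. Such separation was common. Of 482 other tested genes above 0 CPM in all 6 libraries, 59.8% were separated from IL11 and 71.8% from IL6. IL6 and IL11 also had the largest and the smallest fall of the 9 members, so their ratio was the most likely to separate. The difference log2(IL6 + 1) minus log2(IL11 + 1) changed from -2.76 ± 0.10 to -3.58 ± 0.26 (SD), by -0.82. The two-sided exact permutation test gave p = 0.1, the smallest that 3 libraries against 3 allow. Without a pseudocount the change was -1.53, with the same exact p of 0.1. In limma fitted to the difference of each tested gene from IL11, chosen after the data were seen, IL6 stood at -0.82 ± 0.14 (SE, adjusted p = 0.00243), where 26.0% of genes were called lower relative to IL11. IL32 (-0.74) and CSF1 (-0.37) were called in the same direction, and IL23A (-0.16), CSF2 (-0.23), IL1A (-0.08) and CXCL2 (-0.10) were not, on a scale that understates the falls of low genes. All genes of that fit share the IL11 values of the same 6 libraries.

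**Figure D2:**
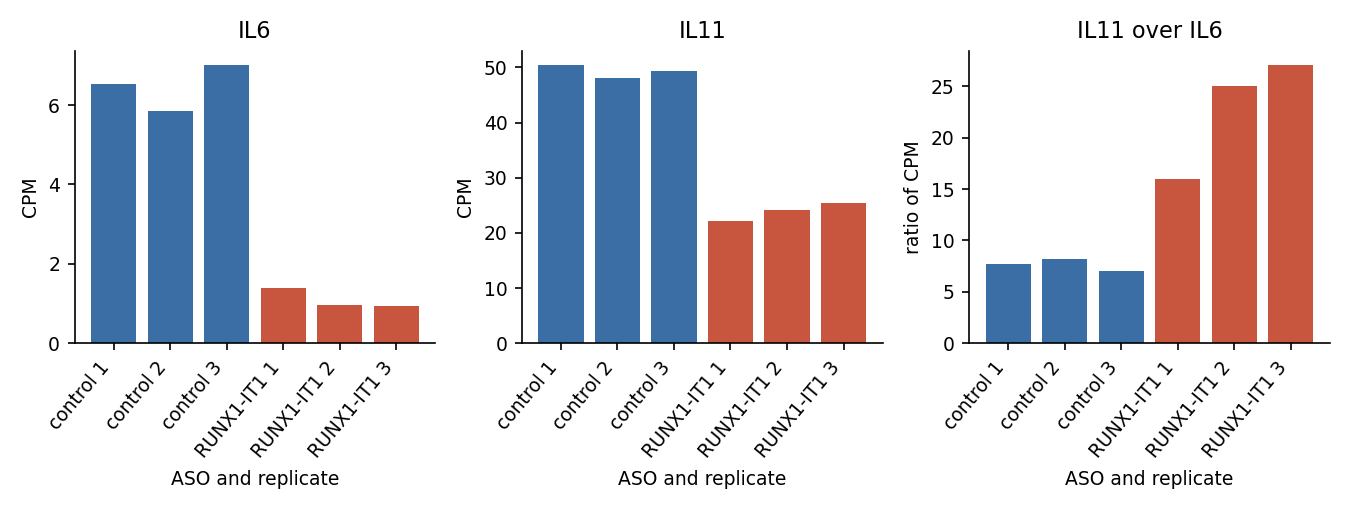
Bars give IL6 in CPM (left), IL11 in CPM (middle) and the CPM of IL11 divided by that of IL6 (right) in each library, blue for control ASO and red for RUNX1-IT1 ASO, with no error bars since each bar is 1 library. The ratio lies between 7.03 and 8.23 in control ASO libraries and between 16.0 and 27.1 in RUNX1-IT1 ASO libraries.

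Of 80 interleukin, chemokine, colony stimulating factor and gp130 ligand genes, a list without the tumour necrosis factor family, the 9 members and CNTF were listed. Other parts of the gp130 pathway were read from a list of 25 genes, of which IL6R and CNTF were listed besides IL6 and IL11. IL6R, the receptor that binds IL-6 before gp130, went from 3.52 ± 0.653 to 1.06 ± 0.103 CPM, 3.30-fold lower (limma, adjusted p = 4.16e-06). CNTF, a neurotrophic cytokine that also signals through gp130, went from 2.66 ± 0.253 to 1.13 ± 0.307 CPM, 2.35-fold lower (limma, adjusted p = 0.000111). The gp130 gene IL6ST, IL11RA, STAT3 and SOCS3 are absent from these tables, which gives no level for them. Of 16 genes for receptors of the 9 members, IL6R was the only one listed.

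IL1A encodes interleukin 1 alpha, an alarm signal that acts through the IL-1 receptor and induces IL6 in many cells. Its libraries stood at 4.33, 3.94 and 4.71 CPM under the control ASO and at 1.18, 1.67 and 1.64 CPM under the RUNX1-IT1 ASO. The fall was 2.90-fold, or 1.10 ± 0.13 on the log2(CPM + 1) scale (SE, limma, adjusted p = 3.42e-06), with 53.0% of tested genes falling further.

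IL23A encodes the p19 subunit of interleukin 23, which is active only when paired with the product of IL12B. It was measured at 2.24, 1.97 and 2.12 CPM under the control ASO and at 0.481, 0.430 and 0.234 CPM under the RUNX1-IT1 ASO, a 5.53-fold fall. RUNX1-IT1 ASO libraries held 9, 8 and 4 reads of it, close to a floor of 3 reads, so its fold is far less precise than that of IL11. IL23A reached the mean of 1 CPM needed for the test only through the control libraries, so its calls here and below depend on the group where it was high. Its change was -1.17 on the log2(CPM + 1) scale (limma, adjusted p = 1.15e-06) but -2.43 in edgeR's quasi-likelihood test on reads recovered from the CPM steps (adjusted p = 2.73e-06), since a pseudocount of 1 shrinks the changes of low genes. In that edgeR test all 8 tested members were called lower, as were 97.8% of tested genes.

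IL32, a cytokine gene of primates and some other mammals without a mouse counterpart, varied most between control libraries among the tested members. It stood at 10.2, 7.59 and 10.7 CPM under the control ASO and at 2.57, 1.61 and 2.17 CPM under the RUNX1-IT1 ASO, with a control coefficient of variation of 17.7%. Even so, the lowest control library was 2.96 times the highest RUNX1-IT1 ASO library. The fall was 4.49-fold, or 1.75 ± 0.15 on the log2(CPM + 1) scale (SE, limma, adjusted p = 1.47e-07).

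IL16, whose product is cut by caspase 3 to release a chemoattractant for CD4+ cells, was the lowest member. It was present at 1.50, 0.984 and 0.942 CPM under the control ASO and at 0.267, 0.323 and 0.410 CPM under the RUNX1-IT1 ASO, 3.42-fold lower. The latter are 5, 6 and 7 reads. Its mean of 0.737 CPM kept it out of the main test, and with no filter on low values its change was -0.67 ± 0.14 (SE, limma, adjusted p = 0.000366), where 97.3% of 771 genes were called lower. The locus of IL16 (chromosome 15, 81159575 to 81314058, plus strand, GENCODE release 29) overlaps STARD5 on the opposite strand. STARD5, a lipid transfer protein gene, is itself listed and went from 13.3 ± 1.37 to 5.60 ± 0.618 CPM. The strand setting of the counting is not given in the sources used here, and reads of IL16 and STARD5 cannot be told apart where it ignored strand.

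The colony stimulating factor genes fell to a similar extent. CSF1, which drives survival of macrophages, stood at 11.2, 9.32 and 11.1 CPM under the control ASO and at 3.05, 3.23 and 3.98 CPM under the RUNX1-IT1 ASO, 3.08-fold lower (limma, adjusted p = 1.82e-07). CSF2, the gene of GM-CSF, stood at 4.38, 4.58 and 3.91 CPM and at 1.12, 1.07 and 1.52 CPM in the same order of libraries, 3.46-fold lower (limma, adjusted p = 9.39e-07). The log2 ratio of CSF2 to CSF1 changed by -0.18 between the groups, and its library values overlapped. The receptor genes CSF1R, CSF2RA and CSF2RB are absent from these tables.

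CXCL2, a neutrophil chemokine gene and a classic NF-kB target, was second in abundance to IL11. It measured 17.2, 18.4 and 17.1 CPM under the control ASO and 6.79, 8.01 and 8.03 CPM under the RUNX1-IT1 ASO. The fall was 2.31-fold, or 1.11 ± 0.10 on the log2(CPM + 1) scale (SE, limma, adjusted p = 2.71e-07), and 77.3% of tested genes fell further. CXCL2 has close paralogs in CXCL1 and CXCL3, both absent from these tables, and reads shared between them could be counted for either.

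**Figure D3:**
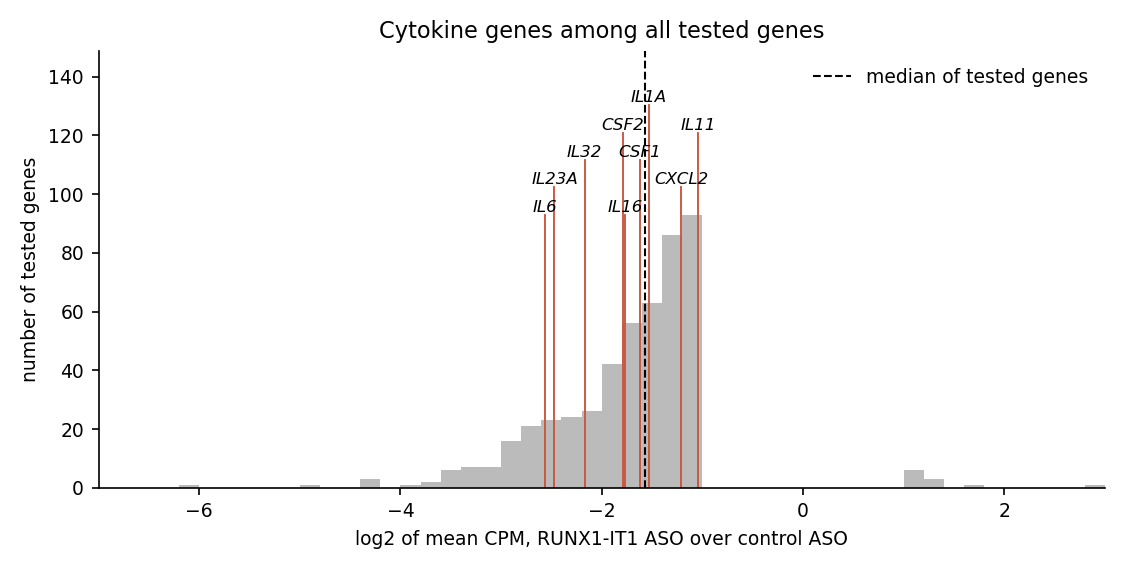
Histogram of the log2 ratio of mean CPM, RUNX1-IT1 ASO over control ASO, over the 489 tested genes, with red lines at the 9 members (IL16 is drawn but was not tested) and a dashed line at the median of tested genes. IL6 (-2.56) and IL23A (-2.47) lie in the left slope, and CXCL2 (-1.21) and IL11 (-1.04) beside the sharp edge near -1 where listed genes end.

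The order of the falls was IL6, IL23A, IL32, CSF2, IL16, CSF1, IL1A, CXCL2 and IL11. Taking the log2 ratio of CPM within each library for neighbours in this order, 6 of the 8 neighbouring pairs overlapped between the groups, and IL1A against CXCL2 and CXCL2 against IL11 did not. Over all 36 pairs of members the ratio did not overlap in 22, or 61.1%. Of pairs of tested genes above 0 CPM in all 6 libraries, 47.6% behaved in this way. The pairs of members include those with the untested IL16, so these shares are over unlike sets. All 8 pairs with IL11 were separated, each toward a smaller fall of IL11, where 59.8% of the other tested genes were separated from IL11. Of the 8 pairs with IL6, 6 were separated, all but those with IL23A and IL16. Of 482 other tested genes above 0 CPM in all 6 libraries, 71.8% were separated from IL6. IL11 and CXCL2, last in the order of falls, were thus separated from each other and from the other 7 members. No share over tested genes was computed for CXCL2. Among those 7, neighbours in the order overlapped at every step, and IL32 also overlapped with IL16, CSF1 and IL1A, so their exact order is not settled.

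Bringing all 6 libraries to the same summed CPM of listed entries (rescaling) measures each gene against the listed set. By construction it centres genes that nearly all fell, and it moved the median of tested genes from -1.11 to -0.06, with 24.1% called lower and 8.79% higher (limma). On that scale IL6 (-0.80, adjusted p = 0.00193), IL32 (-0.56, adjusted p = 0.021) and IL23A (-0.50, adjusted p = 0.0248) were still called lower (limma). IL23A passed the filter only through its control libraries, so its call depends on the group where it was high. IL11 turned to 0.44 (limma, adjusted p = 0.000473), which means that it fell less than the listed total and does not mark a rise. CSF2 (-0.22), CSF1 (-0.11), IL1A (-0.03) and CXCL2 (0.27) were not called.

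Genes that regulate cytokine transcripts were read from lists chosen by function. A list of 25 NF-kB factors and inhibitors also held related genes such as TRAF1 and BIRC3. All 6 of its genes in the tables were called lower (limma), as were 97.5% of all tested genes. Their median log2 ratio of plain mean CPM was -1.69, against -1.57 over all tested genes. TRAF1 (-2.90), TNFAIP3 (-2.28) and BIRC3 (-1.95) fell more than the tested-gene median, and NFKBIA (-1.43), NFKBIE (-1.31) and NFKBIZ (-1.07) fell less. TRAF1, an adaptor of tumour necrosis factor receptors, was 7.48-fold lower, from 26.4 ± 1.37 to 3.53 ± 0.929 CPM, TNFAIP3, which restrains NF-kB, 4.87-fold, and BIRC3, an inhibitor of apoptosis gene, 3.86-fold. NFKBIA, which encodes the inhibitor I kappa B alpha, was 2.69-fold lower. On the rescaled values TNFAIP3, TRAF1 and BIRC3 were still called lower, NFKBIZ (0.42) was called higher, and NFKBIA and NFKBIE were not called. No NF-kB subunit gene is listed.

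Of 18 AP-1 and C/EBP factor genes, FOS, FOSB, JUNB and ATF3 were listed and all 4 were called lower (limma), against the same 97.5% of all tested genes. Their median log2 ratio of plain mean CPM was -2.60, against -1.57. FOS, the partner of JUN in AP-1, went from 40.1 ± 3.83 to 6.98 ± 0.974 CPM, a 5.75-fold fall close in size to that of IL6. JUNB was 2.94-fold lower, FOSB 6.43-fold and ATF3 9.54-fold, and after rescaling FOS, FOSB and ATF3 were called lower and JUNB (-0.06) was not. Among 18 genes of cytokine mRNA decay and stability, ZFP36 was listed. ZFP36, which encodes tristetraprolin and speeds the decay of AU-rich messages such as that of CSF2, went from 10.5 ± 0.701 to 4.68 ± 1.04 CPM, 2.24-fold lower (limma, adjusted p = 9.06e-06), and stood at 0.28 after rescaling (not called).

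**Figure D4:**
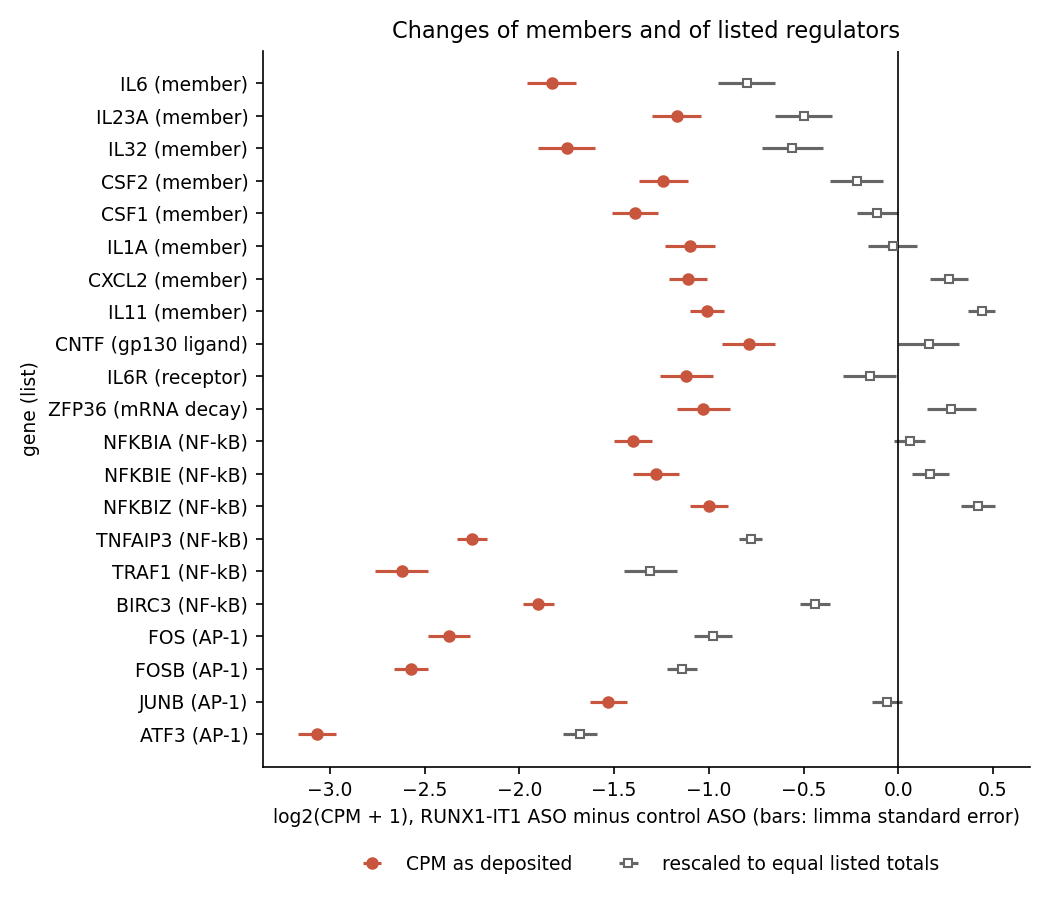
Change on the log2(CPM + 1) scale, RUNX1-IT1 ASO minus control ASO, for the 8 tested members and the tested regulators of the lists, with limma standard errors. Red circles use the deposited CPM and all lie below 0, and open squares, after rescaling to equal listed totals, run from -1.68 in ATF3 to 0.44 in IL11.

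The genes most like IL6 and IL11 were found by the root mean square difference of log2(CPM + 1) over the 6 libraries, after the mean of each gene was subtracted. For IL6 these were BIRC3 (0.0829), SNORD3A, a small nucleolar RNA gene (0.0853), and IQGAP2 (0.0996). For IL11 they were GAS6-AS2, a non-coding RNA gene (0.0354), TMCC2 (0.0420) and MKLN1-AS, another non-coding RNA gene (0.0435). The first 3 were 3.86-fold, 4.37-fold and 4.95-fold lower by plain CPM, each less than IL6. Likeness on this scale depends on the pseudocount of 1. It took the log2 change of IL6 from -2.56 to -1.83, and that of BIRC3 only from -1.95 to -1.9.

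Cytokines can come from immune cells, so markers of such cells were read too, although the labels name only ES2 cells. Of 20 immune cell markers, CD163 and ITGAM were listed, and the other 18, PTPRC among them, are absent from these tables. CD163, a macrophage scavenger receptor gene, went from 9.71 ± 0.464 to 1.59 ± 0.215 CPM (limma, adjusted p = 4.17e-09) and ITGAM, an integrin gene of myeloid cells, from 1.72 ± 0.113 to 0.127 ± 0.0792 CPM, with a mean too low for the test. The summed level of both was 11.1 to 11.9 CPM in control ASO libraries and 1.60 to 1.88 CPM in RUNX1-IT1 ASO libraries. These falls stand in tables where 97.5% of tested genes were called lower. CD163 and ITGAM alone do not show that immune cells were present, and their part in the cytokine values was not tested. None of 14 fibroblast and endothelial markers is listed.

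Between genes, levels were compared as CPM per kilobase of exon of the protein-coding transcripts in GENCODE release 29. IL11 was highest at 20.8 CPM per kilobase under the control ASO and 10.1 under the RUNX1-IT1 ASO, followed by CXCL2 at 14.4 and 6.25. IL16 was lowest at 0.118 and 0.0346. IL6 ranked 5 of 9 at 3.77 under the control ASO. Under the RUNX1-IT1 ASO it ranked 7 at 0.642, after IL1A (0.702) and CSF1 (0.699), and 6 when the longest transcript set the length, so the order of these 3 genes depends on the length used. IL6 (chromosome 7, 22725884 to 22732002) overlaps STEAP1B and a non-coding RNA gene on the opposite strand, and IL32 (chromosome 16, 3065297 to 3082192) overlaps a non-coding RNA and a small nuclear RNA gene. CSF1 lies on chromosome 1 from 109910242 to 109930992, IL23A on chromosome 12 from 56334174 to 56340410, IL1A on chromosome 2 from 112773915 to 112784590, CXCL2 on chromosome 4 from 74097035 to 74099293, CSF2 on chromosome 5 from 132073790 to 132076170 and IL11 on chromosome 19 from 55364389 to 55370463, with no gene annotated across them.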

How the data were processed

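Each of the 6 libraries has a deposited table of CPM values, a unit read from the values themselves. Per the submitters' processing notes, FastQC 0.11.9 and fastp 0.22.0 were used with GRCh38. The aligner, counter, annotation, strand setting and gene filter are not given in the sources used here. Every value above 0 lay within 0.1 of a whole number of steps of 1 read (largest deviation 0.0114 step), which gave totals and reads. The smallest value in control ASO replicates 1, 2 and 3 was 2, 5 and 2 steps, so their step rests on the spacing.

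In R 4.3.3, limma 3.58.1 with a mean-variance trend was fitted to log2(CPM + 1) with group as the only term, over 489 named genes whose mean reached 1 CPM, and adjusted by Benjamini-Hochberg. IL6 and IL11 were compared by an exact permutation test. Entries without a symbol (342) were left out of tests. edgeR 4.0.16 on recovered reads was added after the data were seen. Fits were tested on simulated data. Replicate pairs differed beyond sampling noise (chi-square per gene 1.72 to 3.02). The members and lists were chosen with earlier results of these data known. Named genes are the 9 members, up to 4 genes per list with the smallest adjusted p, and the 3 genes nearest to IL6 and to IL11. NFKBIE and NFKBIZ of the NF-kB list were named beyond this rule. STARD5 was named after its values were seen, for its overlap with IL16. Alternatives were each replicate left out, a replicate block, other pseudocounts, filters and scaling, and no trend.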

Additional observations from a re-analysis of the deposited data

How the results depend on the processing

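Without any one replicate, 477 to 478 genes and all 8 tested members were called lower (limma), and the change of IL6 relative to IL11 ran from -0.97 to -0.72. Calls of all 8 also held with a pseudocount of 0.1, without the trend and in edgeR (478 genes). Without a filter 750 of 771 genes and 9 members were called lower. Above a mean of 5 CPM fewer were tested, and all 165 tested genes were called lower, 4 members among them. IL32 and CSF1 reached that mean only through their control libraries (2.12 and 3.42 CPM under the RUNX1-IT1 ASO), so these calls depend on the group where they were high. Rescaling to equal listed totals left 118 genes lower (43 higher) and 3 members lower (1 higher), and turned IL11 to 0.44 and CXCL2 to 0.27. IL23A, among these 3, passed the filter only through its control libraries. Rescaling centres the listed genes by construction. For IL6 against IL11, limma on differences from IL11 gave -0.82 and passed the threshold (adjusted p = 0.00243), while the exact test cannot go below 0.1. A pseudocount of 0.1 gave -1.43, none gave -1.53 and rescaling -1.24. Libraries with the same replicate number showed no positive correlation of deviations (-0.24, -0.10 and -0.02 for numbers 1, 2 and 3). Libraries with different numbers gave -0.13 to 0.18. With so few libraries this cannot exclude that equal numbers were handled together. With the replicate block 478 genes and 8 members were called lower (limma). IL6 against IL11 stayed at -0.82 (exact permutation test within replicate numbers, p = 0.25, the smallest that 3 pairs allow). Depth limits IL23A and IL16, at 4 to 9 reads in RUNX1-IT1 ASO libraries.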

Other observations

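The mix of the 9 cytokine transcripts differed between the groups. For replicates 1, 2 and 3 their total was 108, 101 and 107 CPM with the control ASO, and 39.0, 41.5 and 44.3 CPM with the RUNX1-IT1 ASO. IL11 made up 46.2 to 47.8% of this sum in control ASO libraries and 56.8 to 58.3% in RUNX1-IT1 ASO libraries. IL6 made up 5.80 to 6.56% and then 2.11 to 3.56%. Neither share overlapped between the groups, which follows from IL11 having the smallest and IL6 the largest fall of the 9. In ratios of single genes, 59.8% of 482 other tested genes above 0 CPM in all 6 libraries were separated from IL11 and 71.8% from IL6.

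Within groups the order of the libraries was not the same for every member. Several of these ranks rest on a few reads, such as 9, 8 and 4 of IL23A and 5, 6 and 7 of IL16 in RUNX1-IT1 ASO libraries. They were not tested or set against other genes. Control ASO replicate 2 was the lowest control library for 6 members (IL1A, IL6, IL11, IL23A, IL32 and CSF1) and the highest for CSF2 and CXCL2. RUNX1-IT1 ASO replicate 1 was the highest of its group for IL6, IL23A and IL32, and the lowest for IL1A, IL11, IL16, CSF1 and CXCL2.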
